A study of Arabidopsis thaliana with 9 samples.

Results

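Rosette leaves of Arabidopsis thaliana that had been sprayed with spores of the fungus Alternaria brassicicola were compared with leaves of plants that had been left alone. The comparison uses 6 of the 9 messenger RNA libraries of the study, 3 per group, chosen by their treatment label, and covers every gene with enough reads to be tested, which was 22019 of 33610 listed genes. All plants were of the wild-type accession Col-0, 5 to 6 weeks old and raised on soil at 22 °C in short days of 8 h light. Alternaria plants (strain MUCL 20297) received 1000000 spores per ml in 0.01% Silwet L-77, a wetting agent, and their leaves were taken 3 days after inoculation. Untreated plants carry no treatment in the labels, and no harvest time is given for them. A mock group of 3 libraries, whose liquid the labels do not describe, was not a side of the comparison but entered the fit of all 9 libraries. Its levels are given beside the comparison for part of the lists and genes. A change printed without them may be present in mock leaves too. The difference between Alternaria and untreated leaves therefore holds whatever spraying does together with whatever the fungus does. The labels call the libraries of a group biological replicates but do not say how many plants each holds.

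Alternaria brassicicola causes black spot disease of the cabbage family and is a necrotroph, a fungus that kills plant cells and lives on what they release. Arabidopsis meets such fungi with receptors for chitin and for damage signals, with the hormones jasmonate and ethylene, and with the antifungal indole compound camalexin. Salicylic acid, another defence hormone, is best known from the response to pathogens that feed on living cells.

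Reads in genes numbered between 22713147 and 36061529 per library. On component 1 of a principal component analysis of the 6 libraries, which held 85.8% of the variance, the untreated libraries lay between -97.6 and -73.2 and the Alternaria libraries between 79.2 and 97.4. Untreated replicate 1 stood apart from the other untreated libraries on component 2, which held 5.21%, at 44.2 against -15.8 and -23.8. It was also the untreated library with the highest levels of many defence genes, so values without it are given where they differ by more than 1.5-fold.

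Most measured genes differed between infected and undisturbed leaves, in both directions and mostly by less than 2-fold. Of the 22019 genes, 14288 (64.9%) differed by edgeR's quasi-likelihood test at a Benjamini-Hochberg adjusted p under 0.05, 7287 of them higher in Alternaria leaves (33.1%) and 7001 lower (31.8%). The other 7731 genes (35.1%) did not pass. In 13795 of the 14288 genes the 3 Alternaria libraries all lay on 1 side of the 3 untreated libraries, where 68.6% of all tested genes had groups that did not overlap. The rises reached further than the falls. At least 2-fold changes numbered 3036 higher (13.8%) and 2757 lower (12.5%), at least 4-fold changes 1329 higher (6.04%) and 323 lower (1.47%), and at least 16-fold changes 361 higher and 15 lower. The balance of the calls depended on the scaling, since 51.0% of them were higher with the trimmed mean of M values used here and 37.5% with upper-quartile scaling, which moved the median gene by -0.20 on the log2 scale. In the authors' deposited table, 12716 genes passed an adjusted p under 0.05, 7012 higher and 5704 lower, and 12468 of these also passed here, 0 of them with the opposite sign. Its header words the ratio as untreated/alternaria, and positive values were read here as higher in Alternaria leaves. The table rests on the same libraries, so the match is not an independent check.

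**Figure D1:**
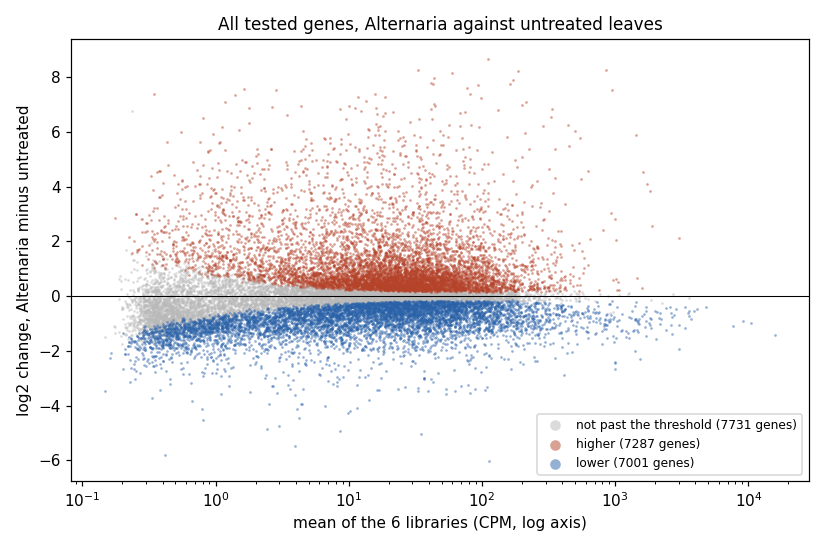
Log2 change between Alternaria and untreated leaves (y axis) against the mean level over the 6 libraries (CPM, reads per 1000000 reads in genes, log x axis), 1 point per tested gene. Rises reach a log2 change of 8.66, falls among genes of at least 5 CPM reach -6.01, and genes above 1000 CPM lie mostly below 0.

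Genes with many reads mostly fell. Of 95 genes with a mean of at least 1000 CPM over the 6 libraries, 13 were higher and 75 lower, with a median log2 change of -0.81, against -0.04 over all tested genes. Between 10 and 100 CPM the rises outnumbered the falls, at 4520 against 3138 of 10299 genes. Below 1 CPM, 297 of 3340 genes were higher and 865 lower, with a median of -0.64. The share of aligned reads that fell outside every feature was 2.43, 3.33 and 3.47% in untreated replicates 1, 2 and 3 and 2.11, 2.70 and 2.57% in the Alternaria replicates, and its part in the changes of the lowest genes was not tested.

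Photosynthesis genes and the most abundant genes held a smaller share of the reads in Alternaria leaves, and defence genes a larger one. The 100 genes with most reads in each library took 26.8, 26.9 and 27.7% of reads counted in genes for untreated leaves and 18.7, 19.5 and 18.8% in Alternaria leaves. A group of 150 defence genes, joined from 8 of the lists below, held 0.468, 0.375 and 0.412% of reads in untreated leaves, 0.638, 0.666 and 0.665% in mock leaves and 2.35, 2.14 and 2.82% in Alternaria leaves. That is 5.83 times as much as in untreated leaves, with no overlap. Light harvesting and photosystem genes of the nucleus fell from 10.3 ± 0.41% to 6.53 ± 0.45% of the reads (mean ± SD, n = 3 per group), with mock leaves at 11.2%, and Calvin cycle and photorespiration genes from 6.31 ± 0.12% to 3.38 ± 0.12%. Genes of the plastid chromosome fell from 5.51 ± 0.73% to 2.97 ± 0.29%, with mock leaves between at 4.06%. Each of these differences had an exact two-sided permutation p of 0.1, the smallest that 3 against 3 libraries allow, while mitochondrial genes, at 0.114% and 0.135%, had overlapping groups and an exact permutation p of 0.5. The lists were chosen with earlier results of these data known. The permutation p of a group made from them, such as the 150 defence genes, is therefore not independent support. In leaf RNA as a whole, fewer cells of a type and less RNA per cell cannot be told apart.

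**Figure D2:**
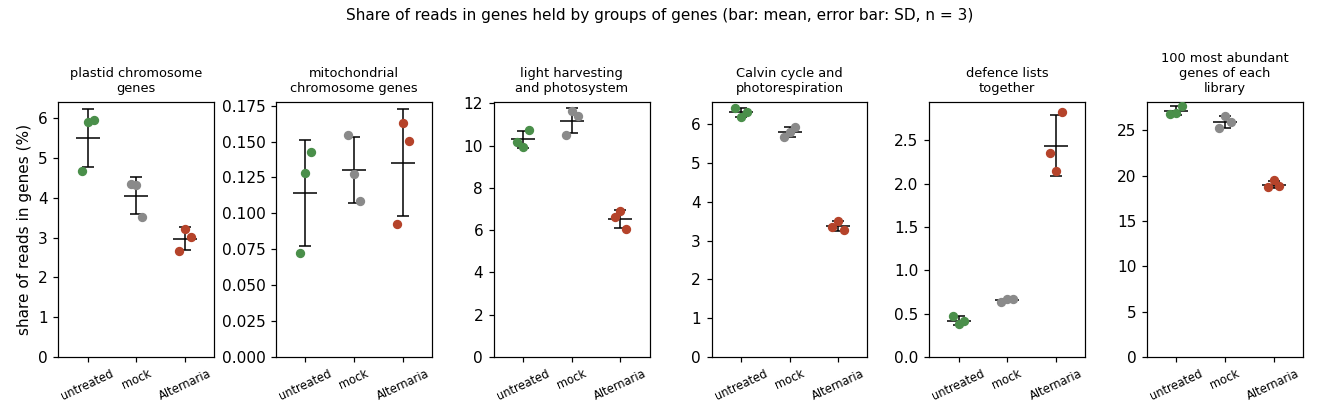
Share of the reads in genes (y axes, percent, each from 0) held by 6 groups of genes in the 9 libraries, with mean and SD of each group (n = 3). Defence lists rise from 0.418% in untreated to 2.44% in Alternaria leaves, while the photosynthesis groups, the plastid chromosome and the 100 most abundant genes lose share.

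Gene lists describe the difference by function. There are 44 lists of 756 distinct genes, of which 726 were tested, and each is read against the 33.1% of all tested genes that were higher, the 31.8% that were lower and the median log2 change of -0.04. Levels are in CPM with TMM library sizes, in the order of replicates 1, 2 and 3, and changes are log2 differences with their standard error. CPM are not corrected for transcript length, so levels of different genes are not compared. Of the 30 untested members 9 were WRKY genes, 5 root markers and 5 flower markers, and the rest belonged to other lists. Where a median from untreated to mock leaves is given, it rests on the same untreated libraries. Genes that are named because they went against their list, and the transcription factor and enzyme genes added beside the leading members, were chosen after their values were seen.

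Genes for perception of fungi and of damage were higher at nearly every step. Of 27 immune receptors and first signalling components, 24 were higher and 0 lower, with a median of 1.88, where the median from untreated to mock leaves was 0.27. The receptor-like protein RLP23, which detects a peptide found in secreted proteins of bacteria, fungi and oomycetes, was at 22.2, 6.09 and 6.19 CPM in untreated and 369, 345 and 441 CPM in Alternaria leaves. Every Alternaria library was far above untreated replicate 1, itself the highest untreated one, and the change was 5.09 ± 0.42 (edgeR adjusted p = 3.29e-07), or 5.98 without that library. The cell wall-associated kinase gene WAK1 rose from 58.4, 22.5 and 21.0 to 691, 577 and 752 CPM, by 4.32 ± 0.33 (edgeR adjusted p = 1.82e-07; 4.96 without untreated replicate 1), and mock leaves averaged 122 CPM. PROPEP2, the precursor of a danger peptide, rose by 4.23 ± 0.48 (edgeR adjusted p = 6.72e-06) from levels of at most 0.371 CPM, and by 5.12 without untreated replicate 1. Chitin receptor genes rose as well, CERK1 by 1.58 and LYK5 by 2.54. The 3 members that did not pass were both receptors of the Pep peptides, PEPR1 at -0.05 and PEPR2 at 0.14, and the precursor PROPEP1 at -0.03.

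Salicylic acid genes rose almost without exception. Of 24 tested, 23 were higher, all of them at least 2-fold, and the median was 3.65, against 0.73 from untreated to mock leaves. PR1, a secreted protein used as the marker of salicylic acid responses, was at 9.70, 2.79 and 4.69 CPM in untreated leaves and 1342, 1499 and 2269 CPM in Alternaria leaves, while mock leaves averaged 11.3 CPM. The groups were more than 100-fold apart, and the change was 8.26 ± 0.45 (edgeR adjusted p = 1.1e-08; 8.86 without untreated replicate 1). FMO1, which makes the mobile defence signal N-hydroxypipecolic acid, went from 0.743, 0.197 and 0.377 to 131, 62.6 and 159.9 CPM, a change of 8.15 ± 0.44 (edgeR adjusted p = 1.03e-08; 8.72 without untreated replicate 1). The synthesis gene ICS1, listed as EDS16, rose less, from 26.6, 16.6 and 15.9 to 139, 127 and 179 CPM or 2.92 ± 0.20 (edgeR adjusted p = 7.99e-08). AT4G10500, the salicylic acid 3-hydroxylase that removes the hormone, rose by 7.25 ± 0.29 (edgeR adjusted p = 1.36e-09) from 1.72, 0.852 and 1.42 to 183, 145 and 262 CPM. EPS1, a synthesis enzyme, was the single member that went down: it fell by 0.42.

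Jasmonate synthesis genes were mostly higher. Of 13 synthesis genes, 11 were higher and 1 lower, with a median of 1.72, beside 0.61 for mock against untreated leaves. LOX2, the chloroplast lipoxygenase that starts the pathway, stood at 249.7, 215 and 268 CPM in untreated, 593, 795 and 907 CPM in mock and 1809, 1551 and 1842 CPM in Alternaria leaves. The 3 groups followed each other without overlap, and the difference of Alternaria from untreated leaves was 2.83 ± 0.15 (edgeR adjusted p = 7.89e-09). The allene oxide cyclase genes AOC2 and AOC3 rose by 2.92 ± 0.20 and 2.75 ± 0.24 (edgeR adjusted p = 6.09e-08 and 5.08e-07). AOC2 averaged 35.8 CPM in untreated, 170 CPM in mock and 271 CPM in Alternaria leaves, and AOC3 5.64, 8.61 and 37.5 CPM. AOC2 is nearly identical to its neighbours in sequence, so reads may be split among them. The exception was JMT, which makes volatile methyl jasmonate and fell by 1.49.

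Repressors of jasmonate signalling, enzymes that break the hormone down and targets of the MYC factors were higher in 25 of 28 cases and lower in 0, with a median of 2.46. JRG21, which encodes a jasmonate-inactivating oxidase, rose from 0.604, 0.885 and 0.628 to 64.6, 92.1 and 109.7 CPM, a change of 6.93 ± 0.32 (edgeR adjusted p = 3.52e-09). The tyrosine aminotransferase gene TAT3 rose by 6.54 ± 0.33 (edgeR adjusted p = 6.32e-09), from 10.5, 3.70 and 7.20 to 666, 456 and 827 CPM. VSP2, a storage protein of the wound branch whose reads may be shared with its close copy VSP1, showed another pattern. It was at 5.94, 5.73 and 12.6 CPM in untreated, 25.1, 94.9 and 114 CPM in mock and 71.1, 85.4 and 33.4 CPM in Alternaria leaves. Mock and Alternaria groups both lay above the untreated one and overlapped with each other, and the difference of Alternaria from untreated leaves was 2.98 ± 0.53 (edgeR adjusted p = 0.000301).

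The branch shared by ethylene and jasmonate, which leads to plant defensins, held the largest rise of all genes averaging at least 5 CPM. In it 18 of 21 genes were higher and 0 lower, with a median of 3.56. The defensin gene PDF1.2c was at 0.511, 0.360 and 0.795 CPM in untreated and 113, 210.0 and 341 CPM in Alternaria leaves, a change of 8.66 ± 0.51 (edgeR adjusted p = 2.03e-08). PDF1.2, the copy used as a marker of this branch, rose from 1.95, 1.44 and 1.17 to 266, 304 and 402 CPM, or by 7.75 ± 0.29 (edgeR adjusted p = 9.71e-10), and mock leaves averaged 5.62 CPM. PDF1.2b and PDF1.3 rose by 7.75 ± 0.38 and 7.96 ± 0.48 (edgeR adjusted p = 5.88e-09 and 2.43e-08; 8.60 for PDF1.3 without untreated replicate 1). The defensin copies are near-identical, so the split of reads among them is uncertain, but each was above all untreated libraries in all Alternaria libraries. The regulators ORA59 and ERF1 rose by 5.06 and 3.91, and the synthesis gene ACO1, at 0.26, did not pass.

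Camalexin genes and antifungal enzymes had the highest medians of the 44 lists. Chitinase and glucanase genes, whose products cut fungal cell walls, were higher in 8 of 9 cases with a median of 4.73, beside 1.58 from untreated to mock leaves, where 6 of the 9 were higher against 15.1% of all genes. The glucanase-family gene AT4G16260 went from 1.25, 1.90 and 1.00 to 299.6, 243 and 478 CPM, a change of 7.90 ± 0.32 (edgeR adjusted p = 1.57e-09). CHI, a chitinase gene, was at 11.7, 2.62 and 3.64 CPM in untreated and 579, 443 and 962 CPM in Alternaria leaves. The lowest Alternaria library was well above the highest untreated one, and the change was 6.83 ± 0.48 (edgeR adjusted p = 8.18e-08), or 7.75 without untreated replicate 1. All 13 camalexin genes were higher, with a median of 5.03 beside 0.40 from untreated to mock leaves. PAD3, the last enzyme of camalexin synthesis, was at 9.56, 0.524 and 1.42 CPM in untreated, 17.2, 14.03 and 9.26 CPM in mock and 148, 100 and 216 CPM in Alternaria leaves. Untreated replicate 1 lay among the mock libraries and far above its own group, so that the change of 5.44 ± 0.63 (edgeR adjusted p = 7.81e-06) became 7.38 without it and 4.84 without untreated replicate 2. The transporter gene ABCG40 rose by 6.21 ± 0.46, the regulator MYB122 by 6.17 ± 0.54 and the glutathione transferase GSTU4 by 5.89 ± 0.40 (edgeR adjusted p = 1.36e-07, 6.31e-07 and 7e-08). Without untreated replicate 1 the change of ABCG40 was 6.90 and that of GSTU4 6.98.

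Glucosinolates, the mustard oil precursors of the cabbage family, split by type. Indole glucosinolates share their tryptophan origin with camalexin, and of 14 genes 9 were higher and 3 lower with a median of 0.94, or 6 higher and 5 lower with upper-quartile scaling. The transporter gene PEN3 rose from 309, 148 and 140.3 to 1432, 1631 and 1879.5 CPM, by 3.05 ± 0.25 (edgeR adjusted p = 3.66e-07), with untreated replicate 1 again the highest of its group. CYP81F2 and IGMT1, which modify the indole ring and of which IGMT1 has near-identical neighbours, rose by 3.35 ± 0.30 and 3.54 ± 0.25 (edgeR adjusted p = 6.89e-07 and 8.12e-08). MYB51, a regulator, rose by 2.85, while MYB34, its relative, fell by 1.92. Tryptophan synthesis itself was higher in 7 of 8 genes, led by TSA1 at 2.48 ± 0.18 (edgeR adjusted p = 1.06e-07). Aliphatic glucosinolate genes, which draw on methionine, went the other way, with 0 higher and 15 of 16 lower and a median of -0.83. Their regulator MYB29 was at 98.4, 86.6 and 94.9 CPM in untreated and 55.9, 42.5 and 27.6 CPM in Alternaria leaves, a change of -1.15 ± 0.18 (edgeR adjusted p = 0.000119). Mock leaves, at 137, 129 and 118 CPM, were not below untreated leaves.

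**Figure D3:**
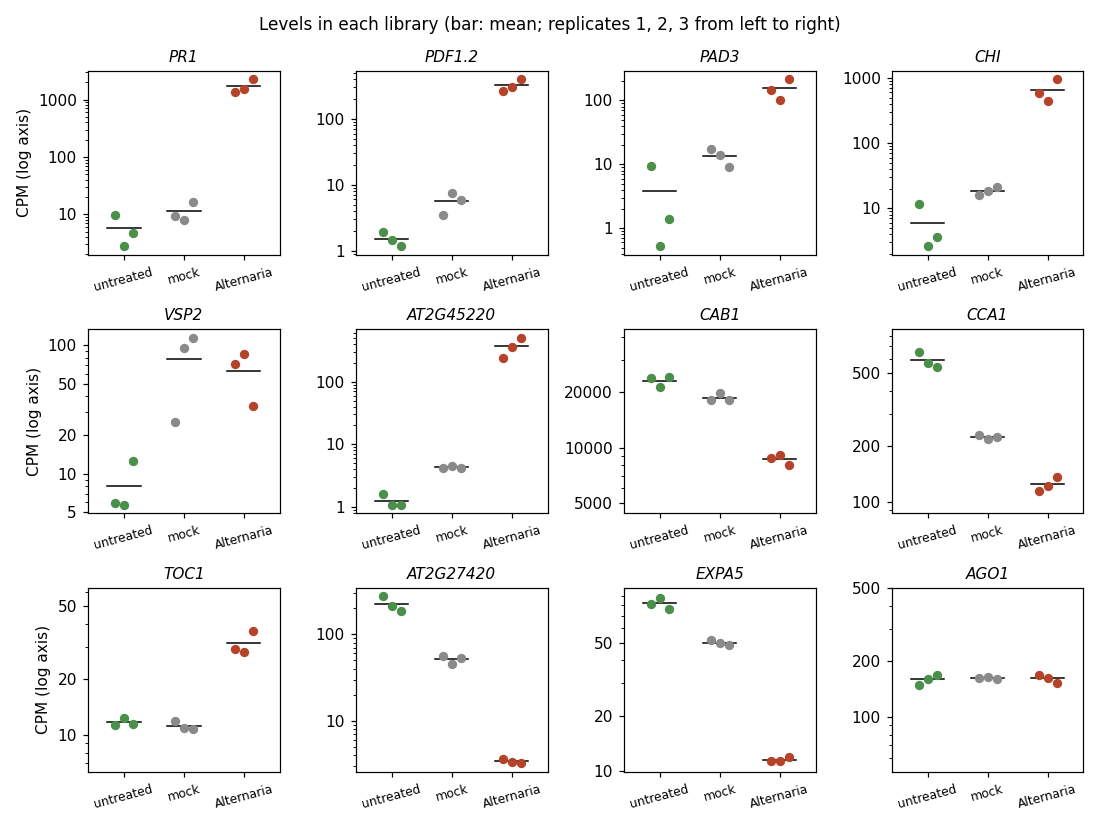
Level of 12 genes in each of the 9 libraries (CPM, log y axes), points for replicates 1 to 3 from left to right and a bar for the mean. Untreated replicate 1 is the highest of its group for PR1, PAD3 and CHI, VSP2 overlaps between mock and Alternaria leaves, and AGO1 lies between 149 and 170 CPM in all 9 libraries.

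Transcription factors of the WRKY family, which bind the W box of promoters, were higher in 40 of 58 tested cases and lower in 5, with a median of 1.93 beside 0.13 from untreated to mock leaves. WRKY75 rose from 0.279, 0.0655 and 0.167 to 14.2, 17.2 and 28.8 CPM, a change of 6.94 ± 0.39 (edgeR adjusted p = 1.47e-08). WRKY62 and WRKY38 rose by 6.03 ± 0.22 and 5.82 ± 0.25 (edgeR adjusted p = 9.71e-10 and 2.3e-09). The members that fell were WRKY49, WRKY35, WRKY14, WRKY27 and WRKY57, with changes from -1.77 to -0.56.

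Promoters were read from RefSeq's TAIR10.1 assembly as the 250 bases before and 50 bases after each annotated gene start, which gave 21074 windows, and were searched for 6 motifs on both strands. The W box, TTGACC or TTGACT, was present in 51.4% of 1323 windows of genes at least 4-fold higher, 29.1% of 296 windows of genes at least 4-fold lower and 32.6% of all windows. Among genes at least 2-fold higher the share was 45.7%. The TGA element, TGACG, which TGA factors bind, stood at 29.9%, 20.9% and 23.5% in the same 3 classes, and the I box, GATAAG, known from light-regulated genes, at 19.1%, 9.80% and 14.7%. The GCC box, GCCGCC, the site of ethylene response factors, was rare at 3.25%, 0.338% and 2.66%. For the G box, CACGTG, the shares were 7.94%, 11.1% and 8.52%, and for the evening element, AAAATATCT, 4.16%, 2.70% and 2.98%. A match is a description of letters and not of binding.

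**Figure D4:**
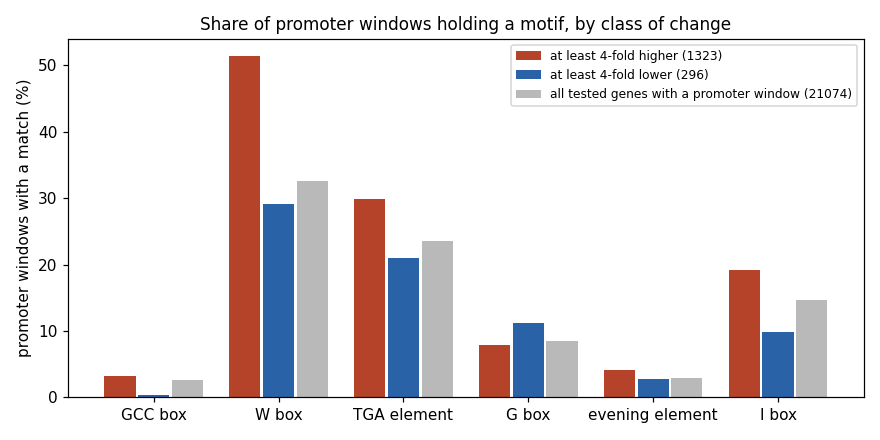
Share of promoter windows (y axis, percent, from 0) that hold each of 6 motifs, among genes at least 4-fold higher, at least 4-fold lower and all tested genes with a window. The W box shows the widest gap, at 51.4%, 29.1% and 32.6%.

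The 5 windows printed here show how the motifs lie in genes of both extremes, 5′ to 3′ along the gene, with every match to any of the 6 motifs in capitals. They were chosen after the values were seen. PDF1.2 (chr5:17907589-17907888, minus strand) holds a GCC box and an I box, YLS9 (chr2:15110242-15110541, plus strand) a GCC box and W boxes, CHI (chr2:18077468-18077767, minus strand) a TGA element directly followed by a W box, and WRKY75 (chr5:4151152-4151451, minus strand) a GCC box, a W box and an I box. AT2G27420 (chr2:11727605-11727904, minus strand), the gene with the largest fall, holds a W box.
PDF1.2: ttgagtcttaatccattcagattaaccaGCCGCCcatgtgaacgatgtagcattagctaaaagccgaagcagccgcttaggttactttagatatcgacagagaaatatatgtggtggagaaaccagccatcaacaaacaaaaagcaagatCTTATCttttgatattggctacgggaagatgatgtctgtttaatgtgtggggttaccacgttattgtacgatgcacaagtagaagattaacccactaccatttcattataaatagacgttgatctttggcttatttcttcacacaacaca
YLS9: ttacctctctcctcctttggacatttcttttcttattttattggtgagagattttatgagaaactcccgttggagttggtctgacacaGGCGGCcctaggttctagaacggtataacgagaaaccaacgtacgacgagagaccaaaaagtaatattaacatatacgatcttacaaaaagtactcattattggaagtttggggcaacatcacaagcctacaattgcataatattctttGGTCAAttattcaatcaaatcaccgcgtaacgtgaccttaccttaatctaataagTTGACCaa
CHI: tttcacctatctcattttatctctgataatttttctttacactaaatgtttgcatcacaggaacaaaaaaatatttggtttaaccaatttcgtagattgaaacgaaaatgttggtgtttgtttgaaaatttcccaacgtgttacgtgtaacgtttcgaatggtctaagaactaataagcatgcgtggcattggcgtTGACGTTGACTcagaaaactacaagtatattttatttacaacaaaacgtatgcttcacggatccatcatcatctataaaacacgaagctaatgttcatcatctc
WRKY75: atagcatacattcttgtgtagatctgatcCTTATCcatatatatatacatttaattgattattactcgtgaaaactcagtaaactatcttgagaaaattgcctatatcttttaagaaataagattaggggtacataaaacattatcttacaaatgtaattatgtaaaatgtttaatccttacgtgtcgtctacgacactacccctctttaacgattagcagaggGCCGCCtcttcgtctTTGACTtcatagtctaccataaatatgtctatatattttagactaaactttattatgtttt
AT2G27420: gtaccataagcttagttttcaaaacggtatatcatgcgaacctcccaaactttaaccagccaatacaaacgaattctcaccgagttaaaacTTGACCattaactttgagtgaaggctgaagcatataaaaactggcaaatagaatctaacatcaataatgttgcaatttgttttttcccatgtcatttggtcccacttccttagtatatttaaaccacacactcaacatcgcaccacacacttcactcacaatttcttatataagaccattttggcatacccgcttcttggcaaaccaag

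Genes of the protein folding and protein removal machinery rose throughout, mostly by smaller amounts. All 16 genes of folding in the endoplasmic reticulum, through which secreted proteins pass, were higher, with a median of 1.78. From untreated to mock leaves 13 of them were higher, against 15.1% of all genes, with a median of 0.63. The chaperone gene BIP3 went from 4.78, 0.688 and 1.38 to 166, 153 and 172 CPM, a change of 6.26 ± 0.39 (edgeR adjusted p = 3.41e-08) or 7.36 without untreated replicate 1. CRT3, a calreticulin that helps immune receptors fold, rose from 92.8, 64.5 and 67.9 to 807, 664 and 843 CPM, by 3.36 ± 0.14 (edgeR adjusted p = 2.24e-09). All 34 subunits of the 26S proteasome, which degrades marked proteins, were higher, with changes between 0.17 and 1.29 and a median of 0.64, and 28 were higher with upper-quartile scaling. Mock leaves had 23 of the 34 higher than untreated leaves, with a median of 0.26. RPT3, with the largest of these changes, was at 67.5, 68.6 and 71.8 CPM in untreated and 178, 151 and 181 CPM in Alternaria leaves. All 15 autophagy genes were higher as well, with a median of 0.94, led by ATG8E, a tag of the recycling membrane, at 3.01 ± 0.14 (edgeR adjusted p = 4.22e-09). ATG8E averaged 8.59 CPM in untreated, 21.7 CPM in mock and 69.0 CPM in Alternaria leaves.

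Detoxifying and respiratory stress genes were more selective. Of 25 tau-class glutathione transferases, 13 were higher and 6 lower with a median of 0.53, and the range was wide, from -1.63 to 6.76. GSTU3 rose from 0.186, 0.262 and 0.209 to 22.5, 13.6 and 37.9 CPM, by 6.76 ± 0.46 (edgeR adjusted p = 5.96e-08). Among 9 genes of mitochondrial stress and alternative respiration 6 were higher and 2 lower. AOX1D, an alternative oxidase that bypasses the usual respiratory chain, went from 0.186, 0.393 and 0.460 to 28.7, 30.6 and 52.5 CPM, a change of 6.70 ± 0.34 (edgeR adjusted p = 7.13e-09). NDA2 rose by 3.35 ± 0.15 (edgeR adjusted p = 3.45e-09) while its relative NDA1 fell by 1.58 and the factor gene NAC13 fell by 0.59. The catalase gene CAT3, one of the 6 genes with most reads in Alternaria leaves, rose from 1309, 1024 and 1052 to 4172, 5454 and 5139 CPM, by 2.13 ± 0.15 (edgeR adjusted p = 8.18e-08). Mock leaves averaged 2215 CPM of CAT3.

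Photosynthesis genes fell by modest amounts but across almost the whole apparatus. Of 40 nuclear genes of light harvesting and the photosystems 0 were higher and 35 lower, with a median of -0.62, where the median from untreated to mock leaves was 0.16. The antenna gene CAB1 was at 23851, 21228 and 24079.7 CPM in untreated and 8742, 9078 and 8046 CPM in Alternaria leaves, a change of -1.42 ± 0.08 (edgeR adjusted p = 2.22e-08). CAB1 and CAB2 are close copies, and CAB2 changed by less, -0.41 ± 0.08 (edgeR adjusted p = 0.000683). PSBS, listed as NPQ4, which lets the leaf shed excess light as heat, fell from 1543, 1487 and 1509 to 541, 489.6 and 546 CPM, a change of -1.53 ± 0.08 (edgeR adjusted p = 6.15e-09). In the Calvin cycle and photorespiration, 25 of 28 genes were lower and 0 higher, with a median of -0.93. RBCS1B and RBCS2B, copies of the Rubisco small subunit that are hard to tell apart by reads, had changes of -1.66 ± 0.08 and -1.53 ± 0.08 (edgeR adjusted p = 5.54e-09 and 8.95e-09). The cycle enzyme gene SBPASE fell from 1520.3, 1375 and 1326 to 495, 536 and 491 CPM. All 24 nuclear genes of the plastid ribosome were lower, within a narrow range of -1.24 to -0.68. From untreated to mock leaves 17 of the 24 were lower, against 14.1% of all genes, with a median of -0.25.

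Chlorophyll synthesis was mostly lower, and senescence genes were higher. In chlorophyll synthesis 10 of 14 genes were lower, with a median of -0.79. The reductase genes PORA and PORB were higher by 1.34 ± 0.21 and 1.71 ± 0.16 (edgeR adjusted p = 9.19e-05 and 9.21e-07), as was the oxygenase gene CH1 by 0.28. PORA averaged 1.25 CPM in untreated, 3.31 CPM in mock and 3.16 CPM in Alternaria leaves. PORB was at 61.7, 61.7 and 63.5 CPM in untreated, 139, 203 and 174 CPM in mock and 196, 254 and 162 CPM in Alternaria leaves, so that the mock and Alternaria groups overlapped with each other and not with the untreated one. Chlorophyll breakdown had 5 of 8 genes higher and 2 lower, led by AT4G11910, a gene of the stay-green family, at 2.78 ± 0.32 (edgeR adjusted p = 7.08e-06). The others that rose were NYE1, NYC1, PPH and ACD1, and those that fell were AT1G44000 and NOL. All 14 regulators and markers of leaf senescence were higher, with a median of 2.99 against 0.14 from untreated to mock leaves. SAG13 went from 5.53, 2.39 and 1.76 to 301, 376 and 521 CPM, a change of 6.99 ± 0.37 (edgeR adjusted p = 9.39e-09). SAG12, a protease gene tied to age-dependent senescence, was at low levels, 0.0929, 0.131 and 0.0418 CPM in untreated and 2.92, 4.03 and 5.09 CPM in Alternaria leaves, with a change of 5.38 ± 0.38 (edgeR adjusted p = 9.49e-08).

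**Figure D5:**
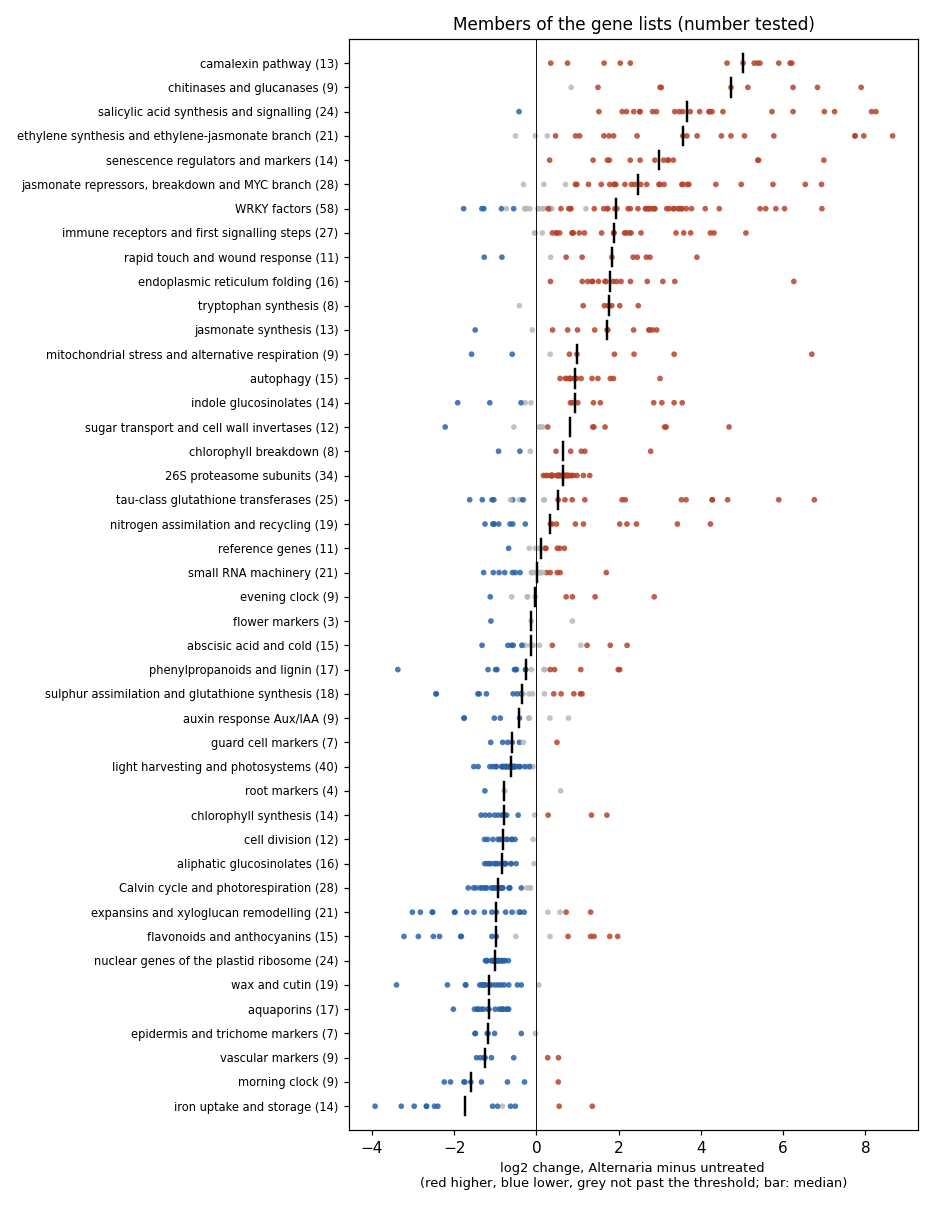
Log2 change between Alternaria and untreated leaves (x axis) of every tested member of the 44 lists, ordered by median (black bar), with the number tested in brackets. Camalexin genes have the highest median, 5.03, and iron uptake and storage the lowest, -1.73.

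Sugar and nitrogen genes included steep rises among transporters. Of 12 sugar transporters and cell wall invertases 7 were higher and 1 lower. MSS1, the hexose importer also known as STP13, went from 7.61, 4.29 and 4.64 to 107, 141 and 172 CPM, a change of 4.68 ± 0.23 (edgeR adjusted p = 5.21e-09). The sucrose exporter gene SWEET12 rose by 3.16 ± 0.16 (edgeR adjusted p = 6.97e-09), and SWEET2, of the vacuole membrane, fell by 2.22. In nitrogen assimilation and recycling 10 of 19 genes were higher and 8 lower. The amino acid importer gene LHT1 was at 5.25, 2.52 and 4.02 CPM in untreated and 62.8, 67.7 and 86.2 CPM in Alternaria leaves, a change of 4.23 ± 0.21 (edgeR adjusted p = 5.81e-09). Cytosolic glutamine synthetase GLN1;1, listed as GSR 1, rose by 3.43 ± 0.20 (edgeR adjusted p = 1.95e-08), whereas the plastid form GS2 fell by 1.25. GLN1;1 averaged 35.3 CPM in untreated, 127 CPM in mock and 378 CPM in Alternaria leaves.

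Iron genes were mostly lower, and sulphur genes were mixed. Of 14 iron genes 11 fell and 2 rose, with a median of -1.73, the lowest of the 44 lists, beside -0.09 from untreated to mock leaves. The iron-deficiency regulator bHLH38 was at 4.74, 5.37 and 4.02 CPM in untreated, 5.54, 3.11 and 5.46 CPM in mock and 0.394, 0.0672 and 0.450 CPM in Alternaria leaves. Only the Alternaria libraries were below 1 CPM, and the change was -3.93 ± 0.39 (edgeR adjusted p = 1.73e-06). NAS4, which makes the metal carrier nicotianamine, had a change of -2.97 ± 0.16 (edgeR adjusted p = 1.04e-08), from 27.1, 34.9 and 30.7 to 3.77, 3.73 and 4.33 CPM, while the iron store gene FER1 and the reductase gene FRO3 rose by 1.36 and 0.55. Mock leaves lay between, at 14.6, 10.0 and 10.3 CPM of NAS4, a change of -1.41 from untreated leaves. Of the 14 iron genes 4 were lower and 1 higher in mock than in untreated leaves. In sulphur assimilation 5 of 18 genes were higher and 9 lower. Those that rose were the transporters SULTR1;2 and SULTR4;1, OASA1, and both glutathione synthesis genes, GSH1 and GSH2. APR2, the main adenylylsulphate reductase gene, stood at 1848, 1592 and 1648 CPM in untreated, 739, 623 and 654 CPM in mock and 337, 295 and 302 CPM in Alternaria leaves. The 3 groups did not overlap, and the difference of Alternaria from untreated leaves was -2.45 ± 0.09 (edgeR adjusted p = 1.24e-09).

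Genes of the leaf surface, water channels and growth were mostly lower. All 17 tested aquaporins, which carry water across membranes, fell, with a median of -1.16. From untreated to mock leaves 11 of the 17 were lower, against 14.1% of all genes, with a median of -0.31. The vacuolar DELTA-TIP went from 721, 751 and 806 to 163, 227 and 171 CPM, a change of -2.02 ± 0.12 (edgeR adjusted p = 1.96e-08). Wax and cutin genes, which build the cuticle, were lower in 18 of 19 cases, with a median of -1.15. In mock leaves 14 of the 19 were lower than in untreated leaves, with a median of -0.40. WSD1, the wax ester synthase gene, was at 5.20, 7.18 and 7.53 CPM in untreated, 0.970, 0.910 and 0.809 CPM in mock and 0.281, 0.739 and 0.900 CPM in Alternaria leaves. Alternaria differed from untreated leaves by -3.40 ± 0.30 (edgeR adjusted p = 6.89e-07), and mock from untreated leaves by -2.89. Expansins and xyloglucan-remodelling enzymes, which loosen the wall of growing cells, were lower in 16 of 21 cases and higher in 2. For mock against untreated leaves 10 of the 21 were lower and 3 higher. EXPA5 fell from 81.6, 87.4 and 76.1 to 11.4, 11.3 and 11.9 CPM, and EXPA11 from 81.8, 66.1 and 47.6 to 5.65, 10.2 and 8.37 CPM, changes of -2.82 ± 0.08 and -3.02 ± 0.21 (edgeR adjusted p = 2.67e-10 and 9.35e-08). The members that rose, TCH4 and XTH24 at 0.72 and 1.32, are known from touch responses. Of 9 auxin-responsive Aux/IAA genes 5 fell and 0 rose, the fallen ones being IAA1, IAA2, IAA7, SHY2 and AXR3, the last pair at -1.76 ± 0.12 and -1.76 ± 0.08 (edgeR adjusted p = 6.92e-08 and 2.93e-09). Cell division genes were lower in 11 of 12 cases with a median of -0.81, which was -0.78 from untreated to mock leaves.

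Genes of phenolic compounds changed in both directions. In phenylpropanoid and lignin synthesis 5 of 17 genes were higher and 9 lower. The ligase gene 4CL3 fell from 63.4, 61.9 and 54.7 to 6.41, 5.04 and 5.88 CPM, a change of -3.37 ± 0.10 (edgeR adjusted p = 3.5e-10). Mock leaves averaged 18.8 CPM of 4CL3. CCR2 and CAD5, of the lignin branch, rose by 2.03 ± 0.22 and 1.99 ± 0.11 (edgeR adjusted p = 4.18e-06 and 1.1e-08). OMT1, FAH1 and CCoAOMT1 were the others that rose. Among 15 flavonoid and anthocyanin genes 5 were higher and 8 lower. The flavonol regulator MYB111 was at 14.1, 14.6 and 12.4 CPM in untreated, 3.02, 2.80 and 2.48 CPM in mock and 1.74, 1.51 and 1.11 CPM in Alternaria leaves, a difference of -3.22 ± 0.17 between Alternaria and untreated leaves (edgeR adjusted p = 7.49e-09). Its target FLS1, flavonol synthase, had a change of -2.87 ± 0.15 (edgeR adjusted p = 1.05e-08). FLS1 averaged 24.5 CPM in untreated, 7.44 CPM in mock and 3.31 CPM in Alternaria leaves. The members that rose were anthocyanin genes, DFR by 1.78, LDOX by 1.40, UF3GT by 0.77, and the regulators PAP1 and MYB90 by 1.32 and 1.97.

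Clock genes of the morning were lower. Of 9 morning genes 8 were lower and 1 higher, with a median of -1.60, beside -1.11 from untreated to mock leaves, where 8 of the 9 were lower and 0 higher, against 14.1% and 15.1% of all genes. CCA1, a core repressor of the clock, was at 655, 568 and 539 CPM in untreated, 229.8, 219 and 225 CPM in mock and 115, 122 and 136 CPM in Alternaria leaves. The 3 groups did not overlap, and the difference of Alternaria from untreated leaves was -2.24 ± 0.09 (edgeR adjusted p = 1.57e-09). LHY, its partner, differed by -2.09 ± 0.08 (edgeR adjusted p = 1.51e-09), and the exception was PRR7, higher by 0.53. Of 9 evening genes 4 were higher, namely TOC1, ELF3, ELF4 and PRR5, 1 was lower and the rest did not pass. TOC1 rose from 11.3, 12.4 and 11.5 to 29.4, 28.3 and 36.8 CPM, by 1.43 ± 0.11 (edgeR adjusted p = 1.6e-07), and mock leaves averaged 11.2 CPM. GI was lower, at 109, 89.5 and 80.4 CPM in untreated, 27.5, 33.6 and 30.3 CPM in mock and 37.4, 43.3 and 47.3 CPM in Alternaria leaves, and mock leaves were the lowest. The labels give no time of day for any harvest, so the hour of sampling and the treatment cannot be told apart for these genes. The same holds for any gene of the other lists whose level varies over the day.

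Responses to touch and to drought were mixed. Of 11 genes that react within minutes to touch or wounding 8 were higher and 2 lower, TCH2 and CBF2, with a median of 1.83 beside -0.49 from untreated to mock leaves. CML37, a calmodulin-like calcium sensor, rose by 3.90 ± 0.37 (edgeR adjusted p = 1.15e-06; 4.51 without untreated replicate 1). WRKY40 was at 19.9, 11.99 and 22.7 CPM in untreated, 14.4, 14 and 12.1 CPM in mock and 114, 96.2 and 157 CPM in Alternaria leaves, higher only in the last group, by 2.76 ± 0.22 against untreated leaves (edgeR adjusted p = 2.23e-07). Among 15 genes of abscisic acid and cold 4 were higher, 5 lower and 6 did not pass, with a median of -0.14, and the lower ones numbered 3, 2 and 3 without untreated replicate 1, Alternaria replicate 1 or Alternaria replicate 3. RD22, a dehydration gene, fell from 732, 491 and 457 to 201, 249 and 222 CPM, and HAI1, a phosphatase gene, rose by 1.795 ± 0.27 (edgeR adjusted p = 8.78e-05). The others higher were ABI1, RAB18 and LTI65, and the others lower LTI78, COR15A, COR15B and KIN2. LTI65 averaged 0.384 CPM in untreated, 2.37 CPM in mock and 1.81 CPM in Alternaria leaves.

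The small RNA machinery, which the study's title brings into question through microRNAs, showed small differences in both directions. Of 21 genes 5 were higher, 7 lower and 9 did not pass, with a median of 0.02, while upper-quartile scaling gave 2 higher and 10 lower with a median of -0.18. AGO1, the main slicer for microRNAs, was at 149, 161 and 169.9 CPM in untreated and 169.8, 163 and 153 CPM in Alternaria leaves, with overlapping groups and a difference of 0.02 ± 0.07 (edgeR adjusted p = 0.857). DCL1, which cuts microRNA precursors, differed by -0.12 ± 0.09 (edgeR adjusted p = 0.26), and AGO2 by 0.25 ± 0.08 (edgeR adjusted p = 0.0148), a call lost with upper-quartile scaling and without Alternaria replicate 3. The higher members were RDR1, AGO3, SGS3, HST and AGO2, and they numbered 3 without Alternaria replicate 3. RDR1, an RNA-dependent RNA polymerase of virus defence, showed the largest rise, from 13.8, 11.3 and 11.5 to 36.7, 40.5 and 41.3 CPM or 1.698 ± 0.09 (edgeR adjusted p = 1.02e-08). AGO5 and AGO6 had changes of -1.29 ± 0.32 and -1.05 ± 0.17 (edgeR adjusted p = 0.00388 and 0.000126). Of 25 tested loci annotated as microRNA precursors, 3 were higher (12%) and 8 lower (32%), where 33.1% and 31.8% of all tested genes were, and reads of polyadenylated RNA do not measure mature microRNAs.

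Markers of single leaf cell types were lower as groups. Guard cell markers were lower in 5 of 7 cases, with the channel gene KAT1 higher, and summed to 106 to 121 CPM in untreated and 90.6 to 95.7 CPM in Alternaria leaves. Epidermis and trichome markers were lower in 6 of 7 cases, with sums of 1424 to 1555 and 884 to 987 CPM. Vascular markers were lower in 7 and higher in 2 of 9 cases, with sums of 257 to 306 and 173 to 190.3 CPM, and the 2 that rose, SUC2 and AST56, no longer did so with upper-quartile scaling. Mock leaves had sums of 98.5 to 101 CPM for guard cell, 1316 to 1570 CPM for epidermis and trichome and 178 to 218 CPM for vascular markers. In that order, the medians from untreated to mock leaves were -0.23, -0.46 and -0.56. From untreated to Alternaria leaves they were -0.59, -1.18 and -1.25. No member of these lists was at 0 in all 6 libraries. Flower markers summed to 4.32 to 5.27 CPM in untreated and 3.12 to 4.05 CPM in Alternaria leaves. Root markers summed to 91.8 to 111 and 42.1 to 47.0 CPM in the same groups, nearly all of it SCR, which leaves also express. SCR was at 108, 103 and 88.7 CPM in untreated, 47.5, 44.7 and 40.3 CPM in mock and 39.5, 42.0 and 44.1 CPM in Alternaria leaves. Its mock and Alternaria groups overlapped with each other and not with the untreated one. The part of a changed cell makeup in the gene groups above was not tested.

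Genes often used as references for relative expression did not all hold still. Of 11 tested, 5 were higher and 1 lower, ACT2, with a median of 0.11, while upper-quartile scaling gave 3 and 3 and a median of -0.09. UBQ10, polyubiquitin, rose from 1271, 1051 and 1055 to 1635, 1769 and 2003 CPM, or 0.68 ± 0.10 (edgeR adjusted p = 5.18e-05). ACT2, an actin, fell from 1179.8, 1101 and 1132 to 684, 728 and 721 CPM, or -0.68 ± 0.06 (edgeR adjusted p = 1.27e-06).

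The largest single changes lay partly outside the lists. TPX2, a thioredoxin-dependent peroxidase gene, rose from 0.325, 0.131 and 0.209 to 48.1, 41.7 and 106 CPM, or 8.25 ± 0.51 (edgeR adjusted p = 2.96e-08). AT2G45220, a pectin methylesterase gene, rose from 1.58, 1.08 and 1.09 to 239, 363 and 505 CPM, or 8.22 ± 0.30 (edgeR adjusted p = 8.97e-10), and YLS9, a gene of the NDR1/HIN1-like family, by 7.77 ± 0.32 (edgeR adjusted p = 1.65e-09). Among falls, the cysteine proteinase gene AT2G27420 led, from 275, 209.8 and 184 to 3.68, 3.39 and 3.25 CPM, a change of -6.01 ± 0.17 (edgeR adjusted p = 2.67e-10), with mock leaves between at 56.1, 45.5 and 52.9 CPM. The 3 groups did not overlap, and the Alternaria libraries differed little from each other. The transporter-family gene AT5G62730 had a change of -4.93 ± 0.18, the F-box gene AT4G34550 -4.26 ± 0.21, the hydrolase-family gene AT3G24420 -4.21 ± 0.22 and the transcription factor gene TINY2 -3.79 ± 0.14 (edgeR adjusted p = 9.71e-10, 5.81e-09, 7.13e-09 and 9.71e-10). Mock leaves averaged 5.15, 3.71, 3.93 and 14.4 CPM of these 4 genes, below untreated leaves in each case.

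Genes with 0 reads in 1 group and some in the other were faint. Of 33610 listed genes, 716 had 0 reads in all untreated libraries and some in Alternaria leaves, and 1073 the other way round. None of either kind averaged 1 CPM in the group that had reads, so 0 reads do not show that a gene was off. Untreated libraries held 28226, 29609 and 29337 genes with reads and Alternaria libraries 28688, 28539 and 28618. The part of depth and of stray reads in these counts was not tested. Just 2 of the genes with 0 reads in 1 group had enough reads to be tested. AT3G56500, a serine-rich protein gene, was at 0 in the untreated libraries and at 0.590, 0.537 and 0.934 CPM in the Alternaria libraries, at least 17.9-fold higher against a floor of 3 counts over the untreated group. Mock leaves also had 0 reads of it. It was picked for its 0 reads and entered the test only through its Alternaria reads, so its p-value is no support and is left out. AT2G01010, annotated as ribosomal RNA, did not pass (edgeR adjusted p = 0.443).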

How the data were processed

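The deposited count files give raw counts of messenger RNA reads per gene for 9 libraries, made by the authors. Per the submitters' processing notes, TopHat2 2.0.12 and HTSeq were used with the TAIR10 genome, and DESeq2 1.8.2 for comparisons. Versions of HTSeq and of the annotation, and the strand setting, are not given in the sources used, so overlapping and antisense genes cannot be separated. The authors' deposited comparison table holds log2 fold changes, p-values and adjusted p-values of Alternaria and untreated leaves. The members and lists were chosen with earlier results of these data known.

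Lines that are not genes (7.73 to 11.2% of a library) were dropped. Genes that passed filterByExpr (minimum count 10) entered 1 model of 9 libraries and 3 group means in edgeR 4.0.16 (R 4.3.3), scaled by TMM, the trimmed mean of M values. It had 6 residual degrees of freedom and a biological coefficient of variation of 0.107. Alternaria minus untreated was tested with the quasi-likelihood F test, Benjamini-Hochberg adjusted over 22019 genes. Standard errors are the size of the log2 change over the square root of F. Where a library has 0 reads, 3 counts remain possible, which is 0.0832 to 0.132 CPM, for counting error only. The labels call the libraries biological replicates without saying how plants were divided among them, and p-values measure the spread between these libraries. Names and promoter windows come from RefSeq's TAIR10.1 (86.1% of loci had an entry).

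Named genes were, among nuclear genes past the threshold with at least 5 CPM over the 6 libraries and groups that do not overlap, the 8 largest rises and 8 largest falls. Up to 3 called members of each list at any level, the 6 genes with most reads in each group, 4 genes at 0 reads in each group, and PR1, PDF1.2, PAD3, ICS1, VSP2, AGO1, AGO2 and DCL1 were added. As alternatives, scaling (RLE, upper quartile), filters, the tool (DESeq2 1.42.0, limma-voom in limma 3.58.1), a fit of 6 libraries, a replicate block, the loss of organelle genes and 9 leave-outs were run. The procedure was also run on simulated counts in which most genes were left unchanged. Most genes differed in the data here, so that run does not bear on the choice of scaling. Tables were made with pandas 2.3.3 and scipy 1.17.1, and figures with matplotlib 3.10.9.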

Additional observations from a re-analysis of the deposited data

How the results depend on the processing

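The count of 14288 genes stayed within 1.5 times under every alternative run. With all libraries it ranged from 13445 with a filter of 1 CPM in 3 libraries to 14783 with upper-quartile scaling. It was 14248 with RLE scaling, 14189 with limma-voom, 13900 with DESeq2 and 13672 in the 6-library fit. Leaving out 1 library at a time gave 12972 to 14286. Upper-quartile scaling turned the split to 5549 higher and 9234 lower, and genes at least 4-fold lower, 323 in the fit reported, came to 503 with it and to 603 with no filter on low counts. Leave-outs gave 334 to 464 for genes at least 4-fold lower. The W box share among risen genes was 45.7% at 2-fold in place of 51.4% at 4-fold. The median of the reference genes reversed to -0.092 with upper-quartile scaling.

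Same-numbered untreated and Alternaria libraries did not deviate together (r of -0.058, 0.008 and 0.006). These values cannot show whether libraries of the same number were handled together, and the labels do not say. With a replicate block the count was 13942, with 7166 genes higher and 6776 lower, and no list count moved by more than 2 genes.

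Single genes crossed the threshold in few cases. AGO2 lost its call with upper-quartile scaling (0.05) and without Alternaria replicate 3 (0.21), MYB0 without untreated replicate 3, and SEP3 in 3 of the leave-outs, while DCL1 gained one with upper-quartile scaling (-0.32) and AT2G01010 without mock replicate 2. The cause of these shifts was not tested. Reads in genes per library, from 22713147, set a floor of 3 counts at up to 0.132 CPM. Groups of 3 libraries cannot give an exact permutation p below 0.1.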

Other observations

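Counts of other classes of loci are given beside the 33.1% of all tested genes that were higher and the 31.8% that were lower. All 92 called genes among 105 tested on the plastid chromosome were lower, with a median log2 change of -1.03, while of 49 tested on the mitochondrial chromosome 15 were higher and 0 lower, with a median of 0.59. The plastid gene ATCG00480 was at 9334, 10158 and 11911 CPM in untreated and 4594, 5156 and 4989 CPM in Alternaria leaves, a change of -1.09 ± 0.11 (edgeR adjusted p = 3.17e-06). Organelle transcripts enter libraries of polyadenylated RNA only in part, so these values describe the captured fraction.

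Loci listed under a version suffix and not in the reference table numbered 764 among the tested, of which 559 averaged under 1 CPM. Of them 37 were higher and 310 lower, with a median of -0.87. The locus AT3G15310.1, one of them, had the second largest fall of all nuclear genes of at least 5 CPM, from 84.2, 71.2 and 46.9 to 1.91, 2.25 and 2.01 CPM or -5.04 ± 0.24 (edgeR adjusted p = 4.75e-09), and mock leaves were at 39.3, 28.4 and 42.3 CPM. Of 205 transcribed pseudogenes 39 were higher (19.0%) and 55 lower (26.8%), and of 59 long noncoding RNAs 11 (18.6%) and 12 (20.3%), all below the shares over all genes. Of 27 small nucleolar RNA genes 0 were higher and 9 lower (33.3%), the latter near the share over all genes. The ribosomal RNA locus AT2G01010 was at 0 in untreated leaves and at 0.0281, 0.672 and 0.727 CPM in Alternaria leaves. In mock leaves it was at 0.222, 42.6 and 0 CPM.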
